A study of Mus musculus with 10 samples.

Results

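The genes described here make, break down and read cyclic AMP in the left ventricle of mice that lack the melanocortin 4 receptor (Mc4r) and of wild type mice. The 10 members were chosen by name, and each has a row in the expression table of 24160 gene rows. They are the G protein alpha subunits Gnas and Gnai2, the adenylyl cyclases Adcy5, Adcy6 and Adcy9, the phosphodiesterases Pde3a, Pde4b and Pde4d, and the protein kinase A subunits Prkaca and Prkar1a. All 10 had a mean of at least 1 normalized count and were tested, among 14611 genes tested in all. A normalized count is the number of reads of a gene divided by a size factor of its library.

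Polyadenylated RNA from the left ventricular posterior wall was sequenced from 6 MC4R-/- libraries and 4 WT libraries, called knockout and wild type below. All came from C57BL6/J mice aged 30 weeks that were kept at 24 °C and came from crosses between heterozygotes, with no treatment named. The labels do not say how the allele was made, and they do not state that each library is 1 animal, so a p-value measures only how far these samples spread, which may be technical. The study is titled for dilated cardiomyopathy in animals without the receptor, and its comparison sets ventricular transcripts of both genotypes against each other.

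Cyclic AMP is an intracellular messenger. Receptors coupled to the stimulatory G protein (Gnas) switch on adenylyl cyclases, which make it from ATP, and receptors coupled to inhibitory G proteins (Gnai2) hold the cyclases back. Cyclic AMP releases the catalytic subunits of protein kinase A (PKA) from their regulatory subunits, and phosphodiesterases end the signal by hydrolysis. In heart muscle this pathway carries the beta-adrenergic increase of rate, force and relaxation, through phosphorylation of calcium channels, phospholamban and troponin I. Mc4r itself couples to the stimulatory G protein.

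The targeted gene could not check the labels. For Mc4r, 4 reads were recovered from the knockout group in total and 2 from the wild type group, and no library held more than 2. Of the other melanocortin receptors, Mc3r and Mc5r had 0 reads in every library, which allows up to 3 reads in each (counting error only). Total reads per library ran from 4145033 to 6425785. The 12 cardiomyocyte markers were all tested, and their summed level was 472157 to 530611 normalized counts in the knockout and 498872 to 549054 in wild type. Wild type replicate 2 stood apart in lymphocyte markers (482.9 summed normalized counts, against at most 47.1 in the other 9 libraries). Knockout replicate 5 stood apart in atrial markers (3637, against at most 1480 in the others). In whole ventricle, fewer cells of a type and less RNA per cell cannot be told apart.

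Cyclic AMP reaches the genome through CREB, a factor that PKA phosphorylates and that binds the cyclic AMP response element TGACGTCA or its short form TGACG. The element was looked for on both strands in the 250 bases before each RefSeq start site (GRCm38.p6), in 19 windows of the 7 members with an entry. Adcy6, Gnai2 and Pde3a were not matched. The full element stood in 1 of the 19 windows, at Prkar1a, and in 1.55% of all 32851 windows. The short form, counted also inside the full element, stood in 9 of the 19 windows and in 17.8% of all windows. At least 1 window held it in 5 of the 7 members matched, and in 19.8% of all genes. The stretches below show 1 match of each of these 5 members. Dusp1 and Sst, a pair of genes that cyclic AMP is known to induce, are shown for comparison. Both were taken from genes with a full element in a window, so they do not show how often induced genes hold one. Capitals mark the full element or the short form, which reads CGTCA where it lies on the other strand.
Prkar1a, chr11:109650889-109650918, plus strand: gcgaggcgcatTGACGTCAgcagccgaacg
Dusp1, chr17:26508597-26508626, minus strand: ggtagggcgggTGACGTCAccgcccggtca
Sst, chr16:23890874-23890903, minus strand: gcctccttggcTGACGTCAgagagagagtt
Gnas, chr2:174327700-174327726, plus strand: agaggttggggCGTCAtcaggctggtt
Pde4b, chr4:102421510-102421536, plus strand: atttggctgcaCGTCAattttctcatc
Prkaca, chr8:83972847-83972873, plus strand: tctgcaactcgCGTCActcatccagga
Adcy9, chr16:4420507-4420533, minus strand: ggacccggcggTGACGtgcgcgggccg
The full element of Prkar1a begins 49 bases before a start site, that of Sst 48 bases and that of Dusp1 143 bases before. Among the short forms, those of Adcy9, Pde4b and Gnas begin 24, 34 and 38 bases before a start site. Prkaca is shown by its site 120 bases before, and holds another 6 bases before. Gnas holds another short form 216 bases before a start site, and Prkar1a holds short forms 151 and 100 bases before. Several start sites per gene raise the chance of a match, and a match does not show binding.

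On a scale of normalized counts per kb of transcript, the members spanned a wide range. Gnas was the highest, at 1387 per kb over the 10 libraries, followed by Prkar1a at 942, Prkaca at 766 and Gnai2 at 647. Adcy6 followed at 301 and Pde4d at 107. Adcy5 (69.0) and Adcy9 (67.0) overlapped in range and cannot be ordered, and Pde4b (44.2) and Pde3a (23.6) were the lowest. For each other pair of neighbours in this order the ranges over the 10 libraries did not overlap. These ranges carry no error of the transcript length used, on which the order of close neighbours depends. Prkar1a stood only 1.23 times above Prkaca, and Prkaca 1.18 times above Gnai2. Lengths are those of the longest GENCODE M21 transcript paired with an accession of the row (2554 bases for Pde4d and 12302 for Pde3a). The family shares below rest on the same lengths.

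Within the cyclase family Adcy6 made up 59.5 ± 1.26% of the summed level per kb in wild type (SD, n = 4) and 56.0 ± 2.68% in the knockout (SD, n = 6). Adcy5 gave 12.7 ± 1.0998% and 13.5 ± 1.67%, and Adcy9 12.04 ± 1.1998% and 13.4 ± 0.943%. Adcy4, a cyclase known from vessels, came next with 9.20 ± 0.333% and 10.6 ± 0.811%. Among 18 phosphodiesterase genes the 3 members were not the most abundant. Pde2a, a cyclic GMP-stimulated enzyme, led with 21.9 ± 1.42% in wild type. Pde4d gave 13.5 ± 1.149%, Pde4b 6.06 ± 0.271% and Pde3a 3.47 ± 0.698% of the family in wild type. Prkaca made up 86.1 ± 1.07% of the catalytic PKA level in wild type, and Prkar1a 85.4 ± 0.616% of the regulatory level.

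**Figure D1:**
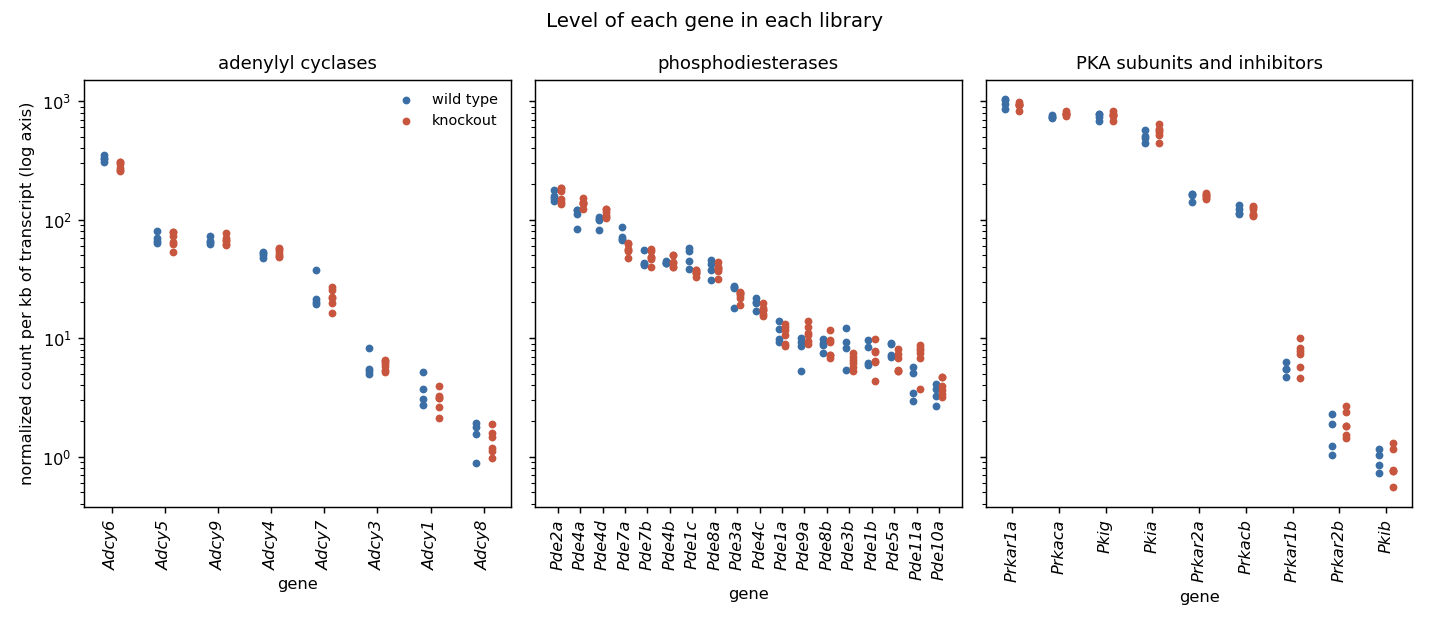
Level of each adenylyl cyclase, phosphodiesterase and PKA gene in normalized counts per kb of transcript (log axis), with 1 point per library, wild type in blue and knockout in red; genes with 0 reads in any library are left out. Adcy6 (301 per kb over all libraries) stands above the other cyclases, while the phosphodiesterases fall off gradually from Pde2a.

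None of the 10 members differed between the genotypes at an adjusted p of 0.05 (0 by limma with Benjamini-Hochberg adjustment over 14611 genes, where 0.459% of genes passed, 0.287% as higher and 0.171% as lower). By edgeR the number of members past the threshold was also 0 (0.342% of genes passed), and by DESeq2 it was 0 (0.835%). At an unadjusted p below 0.05 limma gave 2 members, Adcy6 (lower) and Pde4d (higher), where 9.60% of all genes had such a p. The number was 2 by edgeR (10.5% of all genes) and 2 by DESeq2 (8.27%). For 1 member, Adcy6, the ranges of the genotypes stood apart, as they did for 2.28% of all genes (1.34% higher and 0.938% lower). By mean log2 value 5 members were higher and 5 lower in the knockout, where 51.6% of all genes were lower. The median log2 fold change of the members was -0.01, and that of all genes tested was also -0.01. All 9 fibroblast markers tested had a higher mean log2 value in the knockout and 2 of them passed, with a summed level of 6987 to 8389 normalized counts against 6014 to 7180 in wild type. Of 10 macrophage markers 9 were higher by mean log2 value and 0 passed by limma (4 had an unadjusted p below 0.05), with sums of 2644 to 3213 against 2287 to 2803. Of the 12 cardiomyocyte markers 9 were lower and 0 passed (1 had an unadjusted p below 0.05). Their part in the members' values was not tested.

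**Figure D2:**
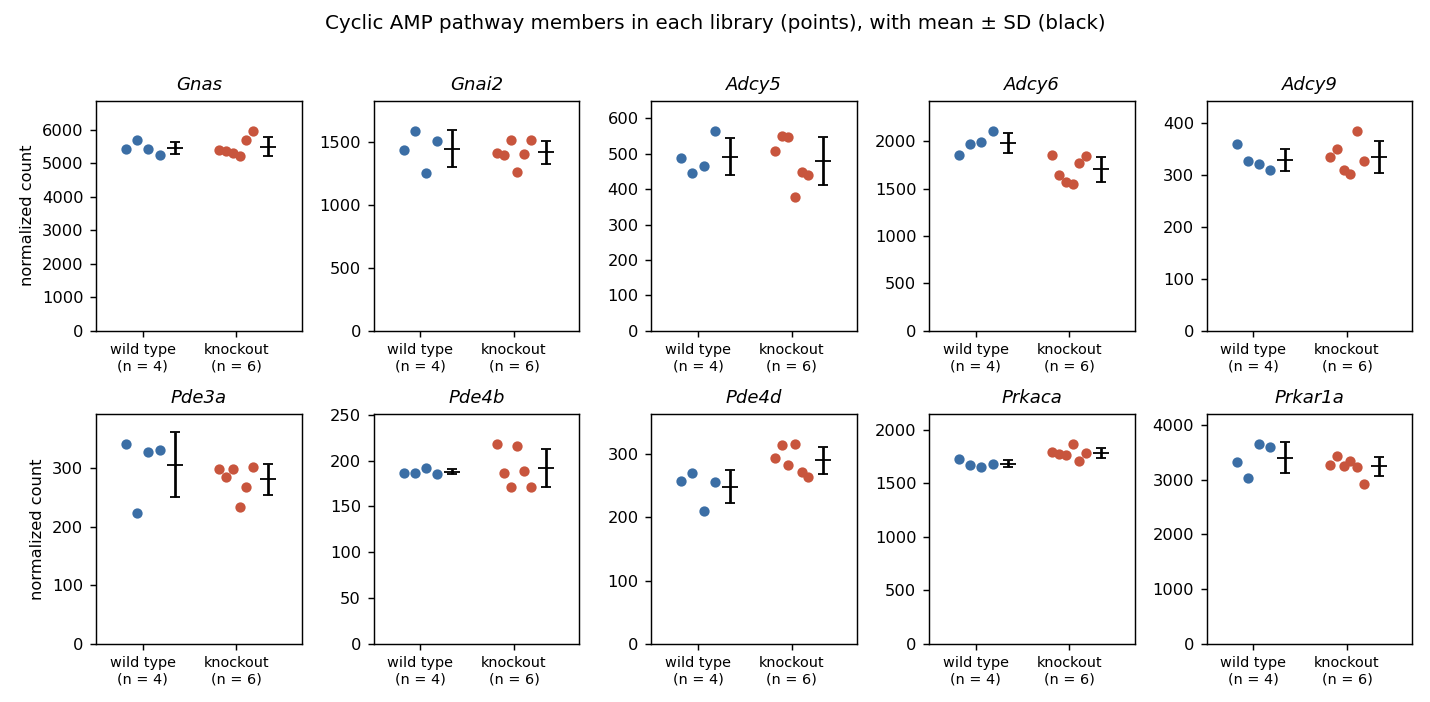
Normalized counts of the 10 members in each library (points, in order of replicate number within a genotype), with the mean and SD of 4 wild type and 6 knockout libraries in black; each axis starts at 0. For Adcy6 the 6 knockout points lie below the 4 wild type points, and for the 9 other members the genotypes overlap.

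Adcy6 encodes one of the main calcium-inhibited cyclases of heart muscle, on chromosome 15 from 98589978 to 98610287. Wild type replicates 1 to 4 had 1859, 1974, 1994 and 2113 normalized counts. The 6 knockout libraries ran from 1545 over a median of 1706 to 1852. Every knockout library was thus below every wild type library, though knockout replicate 1 (1852) and wild type replicate 1 (1859) nearly touched. The means were 1705 ± 135 (SD, n = 6) and 1985 ± 104 (SD, n = 4), a log2 fold change of -0.22 ± 0.07 (SE), or 14.3% less in the knockout on the fitted scale. Its 95% interval reached from -0.36 to -0.08 on the log2 scale, and limma gave an unadjusted p of 0.00328 and an adjusted p of 0.198. DESeq2 gave an adjusted p of 0.0786 and edgeR one of 0.195. Leaving out any 1 library kept the log2 fold change between -0.25 and -0.19, with adjusted p from 0.157 to 0.425 (limma). With a counting strand not given in the sources used here, reads of Adcy6 cannot be told from those of an antisense gene, Gm29331, over 605 shared exon bases.

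The other cyclases among the members showed no such order. Adcy5, the close relative of Adcy6 that is also inhibited by calcium, had 488, 445, 467 and 565 normalized counts in wild type and 377 to 551 in the knockout (median 478). The knockout libraries thus reached from below the wild type range to near its top. On the log2 scale it differed by -0.04 ± 0.10 (SE, limma, adjusted p = 0.929), with a 95% interval from -0.24 to 0.16. Adcy9, a broadly expressed cyclase that resists forskolin, had 359.8, 327, 323 and 311 in wild type and 302 to 386 in the knockout (median 331). The highest library was knockout replicate 5, and the other knockout values lay within or just below the wild type range. Its log2 fold change was 0.02 ± 0.08 (limma, adjusted p = 0.969; 95% interval -0.15 to 0.19). The deposited row of Adcy6 holds 1 of the 17 accessions that the RefSeq table lists, that of Adcy5 1 of 2 and that of Adcy9 2 of 4. Reads of exons outside these forms may be missing.

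The ratio of Adcy5 to Adcy6 within a library does not depend on its scaling. It ran from 0.239 to 0.348 in the knockout and from 0.225 to 0.268 in wild type, with means of 0.282 ± 0.0475 (SD, n = 6) and 0.247 ± 0.0207 (SD, n = 4). Knockout replicates 2 and 3 had the highest ratios (0.335 and 0.348), and the genotypes overlapped.

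The G protein alpha subunits had overlapping levels in the genotypes. Gnas, whose product switches on the cyclases, had 5424, 5683, 5414 and 5253 normalized counts in wild type and 5213 to 5972 in the knockout (median 5389.8). Knockout replicate 6 was the highest library and knockout replicate 4 the lowest. The log2 fold change was 0.01 ± 0.06 (SE, limma, adjusted p = 0.973), and the 95% interval from -0.11 to 0.13 leaves room for changes from 7.13% less to 9.48% more. Gnas is an imprinted locus with several start sites, its row joins 10 accessions, and its exons share 988 bases with the antisense gene Nespas and 1469 with Gm20721. The value therefore sums several products of the locus. Others may be missing, since the RefSeq table lists 23 accessions for it. Gnai2, an inhibitory alpha subunit, had 1440.2, 1593, 1254 and 1514 in wild type and 1267 to 1521 in the knockout (median 1412). All knockout libraries lay within the wild type range. Its log2 fold change was -0.03 ± 0.07 (limma, adjusted p = 0.948; 95% interval -0.18 to 0.12). The ratio of Gnas to Gnai2 was 3.87 ± 0.217 in the knockout and 3.78 ± 0.379 in wild type.

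Pde4d was the phosphodiesterase member with the largest difference, and the only other member with an unadjusted p below 0.05. The enzyme is specific for cyclic AMP and is known to sit near the ryanodine receptor and the beta-adrenergic receptors. Wild type replicates 1 to 4 had 258, 271, 210.4 and 256 normalized counts, and the knockout libraries ran from 265 over a median of 288 to 316. Of the 6 knockout libraries 5 lay above the highest wild type library, and knockout replicate 6 lay among the wild type values. The means were 291 ± 21.6 (SD, n = 6) and 249 ± 26.4 (SD, n = 4), with a log2 fold change of 0.23 ± 0.09 (SE), a 95% interval from 0.04 to 0.41, an unadjusted p of 0.0176 and an adjusted p of 0.365 (limma). Without wild type replicate 3, the lowest library and the one with the fewest reads, the log2 fold change was 0.15 (adjusted p = 0.6247, limma). The gene lies on chromosome 13 from 108654177 to 109955969, a span of 1302 kb with many long and short forms. Its deposited row holds 1 of the 8 accessions that the RefSeq table lists, so reads of exons outside that form may be missing.

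Pde4b, a relative of Pde4d that is also specific for cyclic AMP, had 187, 187, 192 and 186 normalized counts in wild type. The knockout libraries spread more widely, from 171 to 218 (median 187), on both sides of wild type. The log2 fold change was 0.02 ± 0.10 (limma, adjusted p = 0.969; 95% interval -0.17 to 0.22). The genotypes could not be told apart at 139 to 223 reads per library. The short form shown above lies inside the span of the gene, 34 bases before an internal start site. Since the row joins 5 accessions, its value is not that of this start site alone. Pde3a, the cyclic GMP-inhibited enzyme that the inotrope milrinone blocks, had 342, 223, 328 and 332 in wild type and 233 to 302 in the knockout (median 292). Wild type replicate 2 was the lowest of all 10 libraries, and the 3 other wild type libraries were above every knockout library. The log2 fold change was -0.11 ± 0.11 with all libraries (limma, adjusted p = 0.804; 95% interval -0.33 to 0.11). It was -0.25 without wild type replicate 2 (adjusted p = 0.283), the library with the lymphocyte markers, whose part in the result was not tested. It lay nearer to 0 without wild type replicate 1 (-0.05), and moved the same way without wild type replicate 3 or 4 or knockout replicate 4. Pde3a shares 741 exon bases with an antisense gene, Gm28523.

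The 2 ratios within the phosphodiesterases were lower in the knockout on average and overlapped. Pde3a over Pde4d was 0.974 ± 0.139 (SD, n = 6) against 1.25 ± 0.308 (SD, n = 4), with wild type replicate 2 at 0.823 and the other wild type libraries at 1.296 to 1.56. Knockout replicate 6 was the highest of its group, at 1.14. Pde4b over Pde4d was 0.660 ± 0.0560 against 0.763 ± 0.102, and wild type replicate 3 was the highest library, at 0.914.

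**Figure D3:**
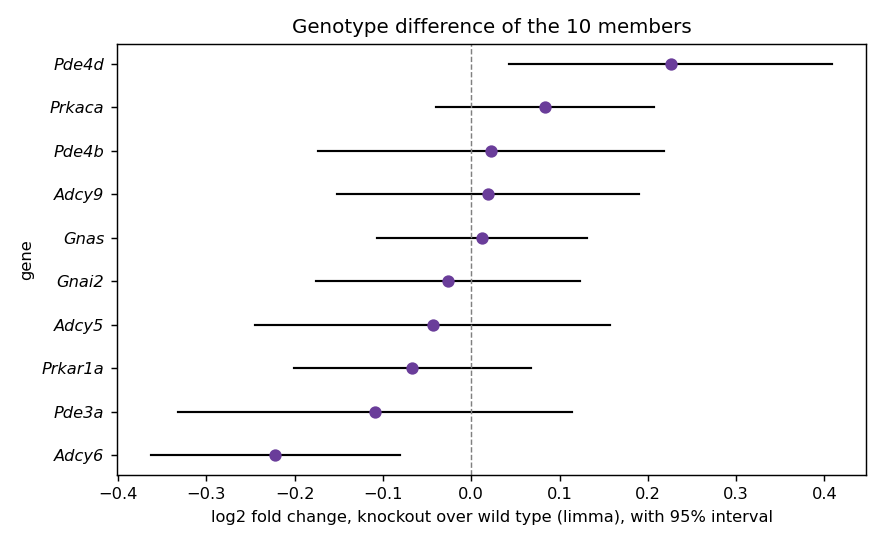
Log2 fold change of each member, knockout over wild type (limma, points), with its 95% interval (lines) and 0 as a dashed line. The intervals of Adcy6 (-0.36 to -0.08) and Pde4d (0.04 to 0.41) lie on one side of 0 before adjustment for 14611 genes, and the other 8 include 0.

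The PKA subunits differed little. Prkaca, the main catalytic subunit, had 1729.8, 1674, 1653 and 1677 normalized counts in wild type and 1713 to 1869 in the knockout (median 1781). Knockout replicate 5 (1713) and wild type replicate 1 changed places in the order, and the 5 other knockout libraries lay above all wild type libraries. The means were 1784 ± 51.2 (SD, n = 6) and 1684 ± 32.6 (SD, n = 4), a log2 difference of 0.08 ± 0.06 (limma, adjusted p = 0.711; 95% interval -0.04 to 0.21). Prkar1a, the regulatory subunit that holds the catalytic subunit inactive, had 3329.7, 3037, 3655 and 3593 in wild type and 2925 to 3442 in the knockout (median 3261). The 2 highest libraries were wild type replicates 3 and 4, and the lowest was knockout replicate 6. Its log2 fold change was -0.07 ± 0.07 (limma, adjusted p = 0.7995; 95% interval -0.20 to 0.07), at the gene with the full cyclic AMP response element shown above. Leaving out wild type replicate 2 gave -0.12 and leaving out wild type replicate 3 gave -0.03, and the value also came nearer to 0 without wild type replicate 4 or knockout replicate 6. The ratio of Prkaca to Prkar1a was 0.551 ± 0.0334 in the knockout and 0.498 ± 0.0461 in wild type, and wild type replicate 2 (0.551) lay inside the knockout range of 0.515 to 0.612.

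The rest of the pathway was read from 13 lists with 210 genes, of which 184 were tested, the members included. Of these, 2 passed (1.09%), both lower in the knockout, where 0.459% of all genes passed and 0.171% passed as lower. At an unadjusted p below 0.05 there were 30 (16.3%), where 9.60% of all genes had such a p. The 2 genes are Pde1c and Ppargc1a. The fall of Ppargc1a was known when its list was drawn up, and all lists were chosen with earlier results of these data known. The shares of 1.09% and 16.3% are therefore not independent of these data and cannot show an excess in the pathway. No gene passed in the lists of G protein subunits (19 tested), regulators of G protein signalling (15), receptors coupled to stimulatory (17) or inhibitory (12) G proteins, cyclases (9), or PKA subunits and inhibitors (9). None passed among A-kinase anchoring proteins (16), other cyclic AMP effectors (13), PKA substrates (15), phosphatases (15) or the CREB family (12). These zeros are by limma with Benjamini-Hochberg adjustment, and the numbers at an unadjusted p below 0.05 were 3, 1, 2, 3, 2, 0, 1, 3, 2, 1 and 2 in the same order. By edgeR 1 of the 184 genes passed, where 0.342% of all genes did, and by DESeq2 4 passed, where 0.835% of all genes did.

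Of the 18 phosphodiesterase genes, the 3 members included, 1 passed and 6 had an unadjusted p below 0.05 (3 higher and 3 lower), where 9.60% of all genes had such a p, and the median log2 fold change was -0.03. This list too was chosen with earlier results known, so its share is not independent of these data. Pde1c, a calcium- and calmodulin-stimulated enzyme that hydrolyses both cyclic AMP and cyclic GMP, had 391, 333, 474 and 509 normalized counts in wild type and 286 to 328 in the knockout (median 313). Every knockout library was below every wild type library. It fell by 0.43 ± 0.10 on the log2 scale (SE, limma, adjusted p = 0.0366), from 427 ± 79.6 (SD, n = 4) to 313 ± 15.4 (SD, n = 6). With 1 library left out, the call held in 2 of 10 fits, those without knockout replicate 5 or wild type replicate 2 (0.00111 in the latter). The largest adjusted p, 0.211, came without wild type replicate 4. The call was also lost by edgeR (adjusted p = 0.0520) and with the replicate number as a block (0.166). The block fit had to leave out knockout replicates 5 and 6. By limma run with neither trend nor robust estimation the call was lost too (adjusted p = 0.320), while it held by DESeq2 (0.00684). The wild type libraries with most Pde1c, replicates 3 and 4, also had the highest summed smooth muscle and pericyte markers (12389 and 11795 normalized counts, against 9590 to 10485 in the other libraries). Of those 9 markers 7 were lower in the knockout by mean log2 value and none was at 0 in every library, and their part in the Pde1c result was not tested.

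Pde7a and Pde4a, both specific for cyclic AMP, also had groups that did not overlap, and did not pass. Pde7a had 448, 432, 547 and 428 normalized counts in wild type and 299.7 to 402 in the knockout, a log2 difference of -0.37 ± 0.09 (limma, adjusted p = 0.0558). Pde4a had 564, 562, 388 and 518 in wild type and 573 to 704 in the knockout, a log2 difference of 0.35 ± 0.09 (limma, adjusted p = 0.0951). Both passed by DESeq2 (adjusted p = 0.0199 and 0.0494) and without wild type replicate 2 (0.0301 and 0.0269, limma). Without both wild type replicate 2 and knockout replicate 5 they also passed (limma, adjusted p = 0.0341 and 0.0378). The same held by limma with library weights (0.04 and 0.0459), and Pde7a also passed without knockout replicate 4 (0.0432, limma). Without a filter on low values neither passed (limma, adjusted p = 0.112 and 0.171). Neither passed by edgeR (adjusted p = 0.0816 for Pde7a and 0.138 for Pde4a), with the replicate number as a block (0.330 and 0.266), or by limma run with neither trend nor robust estimation. Without wild type replicate 3, which had the highest Pde7a and the lowest Pde4a, the log2 differences were -0.29 (limma, adjusted p = 0.215) and 0.23 (0.298). Pde4a and Pde4d thus had positive log2 fold changes and Pde1c, Pde7a and Pde3a negative ones, and only Pde1c passed by limma. Pde4c, another gene of the Pde4 group, had a lower mean in the knockout (17.3 against 19.7 normalized counts per kb). Pde11a, with 9 to 36 reads per library, had 29.9 ± 7.48 against 17.96 ± 5.37 normalized counts, which is 0.70 ± 0.25 on the log2 scale (limma, adjusted p = 0.282).

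**Figure D4:**
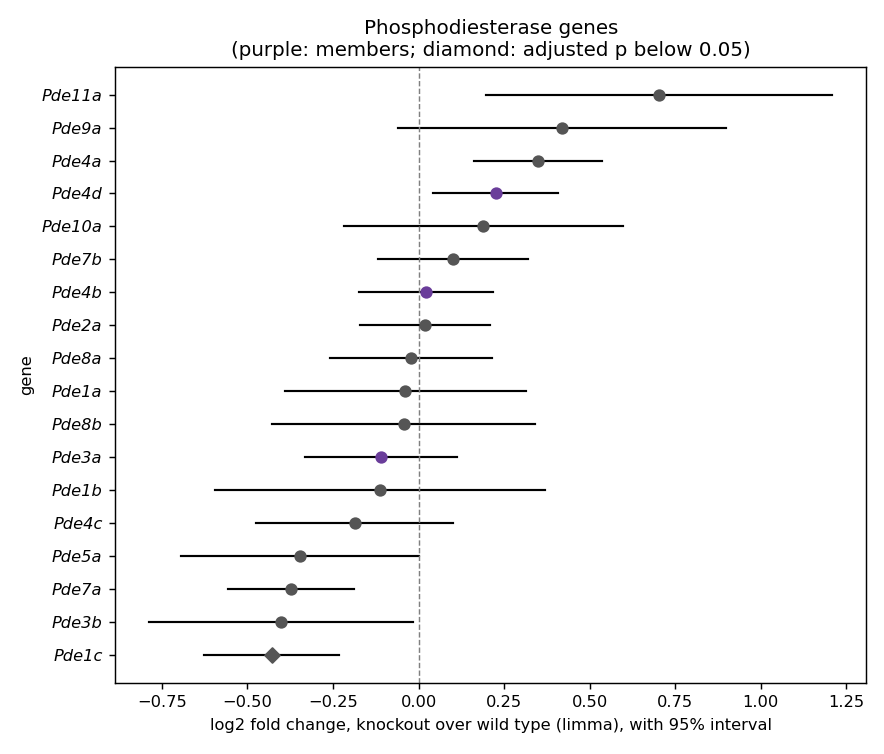
Log2 fold change of the 18 phosphodiesterase genes, knockout over wild type (limma, points), with 95% intervals (lines), the members Pde3a, Pde4b and Pde4d in purple and genes past an adjusted p of 0.05 as diamonds. Pde1c at -0.43 is the only diamond, and the family lies on both sides of 0.

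Among genes that bind cyclic AMP directly, the pacemaker channels Hcn2 and Hcn4 had opposite signs and neither passed. Hcn2 had 164, 168, 136 and 157 normalized counts in wild type and 104 to 140.3 in the knockout (log2 fold change -0.40 ± 0.11, limma, adjusted p = 0.131). Hcn4 had 51.0, 22.6, 20.8 and 26.4 in wild type and 40.1 to 70.9 in the knockout, a log2 difference of 0.76 ± 0.22 (limma, adjusted p = 0.143). It passed without wild type replicate 1, the highest wild type library (adjusted p = 0.0171). The highest Hcn4 value was in knockout replicate 5, the library highest in atrial markers. Of 6 atrial markers tested 5 had a higher mean log2 value in the knockout. Their summed level was 716 to 3637 there and 657 to 1480 in wild type, none was at 0 in every library (Bmp10, not tested, had 1 read in each of 2), and their part in the Hcn4 values was not tested. Without both knockout replicate 5 and wild type replicate 2, the log2 fold change of Hcn4 was 0.55 (limma, adjusted p = 0.323).

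Upstream of the cyclases, the muscarinic receptor gene Chrm2, which couples to inhibitory G proteins, had 270.3, 190.5, 277 and 271 normalized counts in wild type and 167 to 231 in the knockout. Its log2 fold change was -0.29 ± 0.11 (limma, adjusted p = 0.344). Wild type replicate 2 was again the low library of its group, and without it the adjusted p was 0.0403. Gnao1, a G protein alpha subunit gene, differed by 0.30 on the log2 scale, with an SE of 0.11 (limma, adjusted p = 0.326). For Gnai3, a relative of Gnai2, the log2 difference was -0.23 ± 0.11 (limma, adjusted p = 0.4996). Crhr2, a receptor for urocortins that couples to the stimulatory G protein, had 240.2 ± 17.2 against 205 ± 8.89 normalized counts (limma, adjusted p = 0.346).

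Downstream of PKA, the genes listed here as induced by cyclic AMP through CREB had a median log2 fold change of -0.12 over 22 tested genes. By mean log2 value 13 of them were lower and 9 higher. Pde3a, Pde4b and Pde4d are on this list as well. Whether cyclic AMP induces each listed gene in heart was not tested. Ppargc1a, the coactivator of mitochondrial biogenesis, was the 1 gene past the threshold, with a log2 difference of -0.54 ± 0.07 and an adjusted p of 0.000316 by limma. Its fall was known when the list was drawn up and is not independent evidence about the list. Nr4a1, an orphan nuclear receptor that cyclic AMP induces within minutes to hours, had 46.2, 74.9, 63.7 and 70.4 normalized counts in wild type and 27.4 to 53.1 in the knockout. Its log2 fold change was -0.72 ± 0.19 (limma, adjusted p = 0.105), and wild type replicate 1 lay inside the knockout range. For Dusp1, shown above with a full element, the log2 difference was -0.23 ± 0.11 (limma, adjusted p = 0.476), and Sst had 0 reads in every library. Among PKA substrates, the small heat shock protein gene Hspb6 had 6796 ± 367 against 5878 ± 631 (limma, adjusted p = 0.195) and passed without wild type replicate 2 (0.0320). The kinase gene Sik3, whose product PKA inhibits, had 486 ± 21.1 against 579 ± 57.2 (limma, adjusted p = 0.189).

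**Figure D5:**
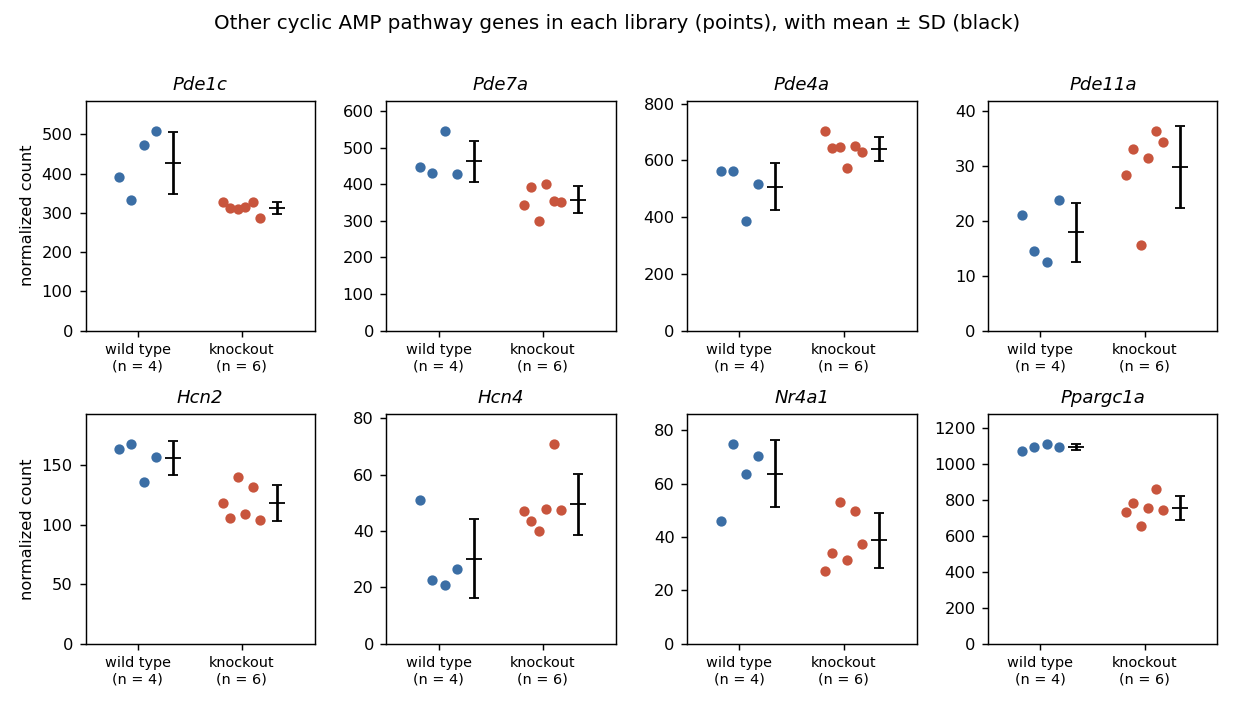
Normalized counts of 8 other pathway genes in each library (points), with the mean and SD of 4 wild type and 6 knockout libraries in black; each axis starts at 0. Pde1c, Pde7a and Ppargc1a are lower in all 6 knockout libraries than in any wild type library, Pde4a is higher in all 6, and Pde11a, Hcn2, Hcn4 and Nr4a1 overlap.

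For the 2 members with the smallest unadjusted p, the genes with the most similar pattern over the 10 libraries were picked from 14610 others by Pearson's r of log2 values, as a description with no test. For Adcy6 they were 4930525G20Rik, Ybx3 and Rph3al, with r from 0.914 to 0.940. For Pde4d they were Oxnad1, Kif5a and Paqr7, with r from 0.941 to 0.949. After the genotype means were removed, r was 0.862 to 0.869 and 0.885 to 0.902. None of the 6 genes is on the lists of the pathway, and each was the best of many over libraries that share their scaling.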

How the data were processed

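Per the submitters' processing notes, the tools include Cuffdiff 2.2.1.3, Cuffnorm 2.2.1.1, Cufflinks 2.2.1 and TopHat2 2.1.0, with build mm10. Their roles, annotation and strand setting were not given in the sources used here. Deposited signal values behave as read counts divided by 1 size factor per library: 99.99 to 100% of values above 0 came out as whole reads (tolerance 0.1 reads), and this gave back the reads. No value column was left out. Of 24160 rows, 23980 matched a symbol in RefSeq's GRCm38.p6 table and 335 of them join several symbols.

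Genotype was compared over all 10 libraries, without covariates, by limma 3.58.1 in R 4.3.3 (trend and robust) on log2(normalized count + 1) for genes with a mean of at least 1. Fold changes are on that scale, which understates changes of low genes. p-values are two-sided, adjusted by Benjamini-Hochberg over all genes tested, with a threshold of 0.05. edgeR 4.0.16 and DESeq2 1.42.0 ran on the recovered reads. Intervals are 95% intervals of the fit. The procedure was also run on simulated data with known changes, whose outcome is not given here and bears on no result above. Alternatives were other pseudocounts, filters, scalings, tests, a replicate block and leaving out libraries. The replicate block used only replicate numbers found in both genotypes, so knockout replicates 5 and 6 were left out of it.

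The members and lists were chosen with earlier results of these data known. Named genes are the members, Mc4r, and of each list the genes past the threshold and up to 4 with the smallest p, with the genes most like 2 members. Dusp1, Sst and the melanocortin receptors were named outside this rule. Motifs were searched in RefSeq promoter windows.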

Additional observations from a re-analysis of the deposited data

Results flagged for a closer look

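A value was singled out where it lay far from the other libraries of its genotype, by Dixon's criterion at the 95% level. Of 148 groups of values looked at, 16 held such a library, and chance gives about 1 in 20. Among the members, Pde3a was low in wild type replicate 2 (223 normalized counts, next 328), and Pde4b was high in wild type replicate 3 (192.4, next 186.9), a gap that is large only against the narrow spread of that group. The ratio of Pde4b to Pde4d was high in the same library (0.9145). Wild type replicate 2 also held the lowest Chrm2 (190.5) and the highest Vipr1 (92.07, next 19.24) of its group, and the highest lymphocyte markers (482.9 summed normalized counts). Wild type replicate 3 had the lowest Adcy2 (1.384). Wild type replicate 4 was highest in mesothelial markers (70.43).

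In the knockout, replicate 5 was highest in Hcn4 (70.91), in Ppp1r1b (13.17), in atrial markers (3637) and in adipocyte markers (25.32). Replicate 3 was highest in Rgs12 (200.4), Adcyap1r1 (127.2) and Hspb6 (7498), and replicate 2 in Ppp1ca (1208).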

How the results depend on the processing

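The number of members past the threshold was 0 in every setting run, and leaving out 1 library kept it at 0 to 0. Over all genes the 67 calls became 0 when limma ran with neither trend nor robust estimation (where 1290 had an unadjusted p below 0.05), 118 with library weights, 122 by DESeq2, 168 without both wild type replicate 2 and knockout replicate 5, and 26 to 117 when 1 library was left out. The 2 pathway calls became 1 without a filter, 1 with the replicate block, 1 by edgeR, 0 with neither trend nor robust estimation (where 26 had such an unadjusted p), 4 by DESeq2, 5 with library weights, 6 without both of those libraries, and 1 to 6 when 1 library was left out. The cause of these shifts was not tested. The log2 fold change turned for Gnas (-0.0004 after quantile normalization, -0.0320 with the block), Adcy5 (0.0029 with the block), Adcy9 (-0.0256 with the block and -0.0264 without both libraries) and Gnai2 (0.0225 without both libraries). When 1 library was left out, it ran from -0.0125 to 0.0329 for Gnas, -0.0942 to 0.0207 for Gnai2, -0.0888 to 0.0260 for Adcy5, -0.0224 to 0.0614 for Adcy9 and -0.0164 to 0.0541 for Pde4b. It kept its sign for Pde3a (-0.2544 to -0.0500) and Prkar1a (-0.1205 to -0.0314). The same held for Adcy6 (-0.2529 to -0.1912), Pde4d (0.1479 to 0.2686) and Prkaca (0.07 to 0.0966). The 5 ratios kept within 1 SD of their values in each setting run, but none of these settings could have moved them further. Scaling cancels in a ratio within a library. Leaving out at most 1 library of a genotype cannot shift the difference of group means by 1 SD (the larger of the genotypes). Over 1 library left out, the log2 differences were 0.11 to 0.22 for Adcy5 over Adcy6, -0.0013 to 0.10 for Gnas over Gnai2, -0.52 to -0.22 for Pde3a over Pde4d, -0.25 to -0.11 for Pde4b over Pde4d and 0.11 to 0.20 for Prkaca over Prkar1a. Deviations of same-numbered libraries from their group means correlated at -0.153 to -0.0309, and those of differently numbered libraries at -0.16 to 0.267. So few correlations show no pairing by replicate number and cannot exclude one. With the block, Pde1c lost its call (limma, adjusted p = 0.166) and Adcy6 had an adjusted p of 0.369. Since the block fit also left out knockout replicates 5 and 6, its shifts are not those of the block alone.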
